A study of Mus musculus with 28 samples.

Results

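Drug-naive mice that carried 2 copies of an A/J segment of chromosome 11 were set against C57BL/6J (B6) mice that carried none, in RNA from striatum. The comparison used the 8 arrays of homozygous congenic mice and the 8 arrays of B6 wildtype controls, which together made up batch 2, 16 of the 28 arrays of the series. The homozygous congenic mice had A/J alleles on both chromosomes from 84 to 96 Mb (build 37) on a B6 background, and were 52 or 57 days old. The B6 wildtype controls had B6 alleles there and were 61 or 63 days old. Each group held 4 females and 4 males, and left and right punches were pooled for each mouse. The other 12 arrays held heterozygous congenic mice and their B6 wildtype littermates, 6 of each, and served as a second set with 1 copy. The homozygous mice and their controls came from different litters, and the sample numbers in the array names ran in separate blocks by genotype. Genotype, age and litter cannot be told apart in this comparison, nor can array order if it followed those numbers. The p-values measure the spread between single mice, 1 array each.

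A congenic strain carries a stretch of donor chromosome, moved by repeated backcrossing, in the genome of another inbred strain. A gene inside the stretch can differ because its own alleles differ (a cis difference). A gene elsewhere can differ through products of the stretch, through donor sequence that remains outside it, or for reasons other than genotype. The striatum consists mostly of GABAergic spiny projection neurons, which carry dopamine receptors and receive cortical and dopaminergic input, and it takes part in the locomotor response to stimulants. The title of the series concerns a locus for methamphetamine sensitivity. The chromosome number comes from knowledge of the study.

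Values are log2 intensities for 19946 genes, 132 of them in the segment. Array medians lay between 7.47 and 7.54, and the levels of Xist and Eif2s3y matched the labelled sex for 16 of 16 arrays. Transcripts of hepatocytes were measured at widely varying levels. The mean log2 value of Alb (albumin), Apoa1, Fabp1, Cyp2e1, Apoh and Fgg was 7.62 at the lowest, 9.17 at the median and 10.33 at the highest in homozygous congenic mice, against 7.09, 7.96 and 11.26 in B6 controls. Both groups spread widely and overlapped, and the highest value belonged to B6 control 1. Among the controls the liver mean was 11.26, 9.89, 10.57 and 8.00 in the 63-day mice and 7.91, 7.36, 7.37 and 7.09 in the 61-day mice. Among the congenic mice it was 10.33, 9.06, 9.64 and 9.29 at 57 days and 7.62, 8.30, 10.12 and 8.70 at 52 days. Whether age or another difference between these sets of mice goes with liver RNA was not tested. B6 control 1 also had the lowest mean of 17 markers shared by spiny neurons, at 10.67. The homozygous congenic arrays held 10.96 to 11.32 and the other 7 B6 controls 11.09 to 11.32. A slope on the 6-gene liver mean was called for 4720 of 19940 genes (limma, adjusted p under 0.05), 23.7% of those tested, with 1572 higher (7.88%) and 3148 lower (15.8%) at more liver RNA. The genotype comparison is therefore given without and with the liver mean as a covariate, and also without B6 control 1. In tissue punches, fewer cells of a type and less RNA per cell cannot be told apart.

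**Figure D1:**
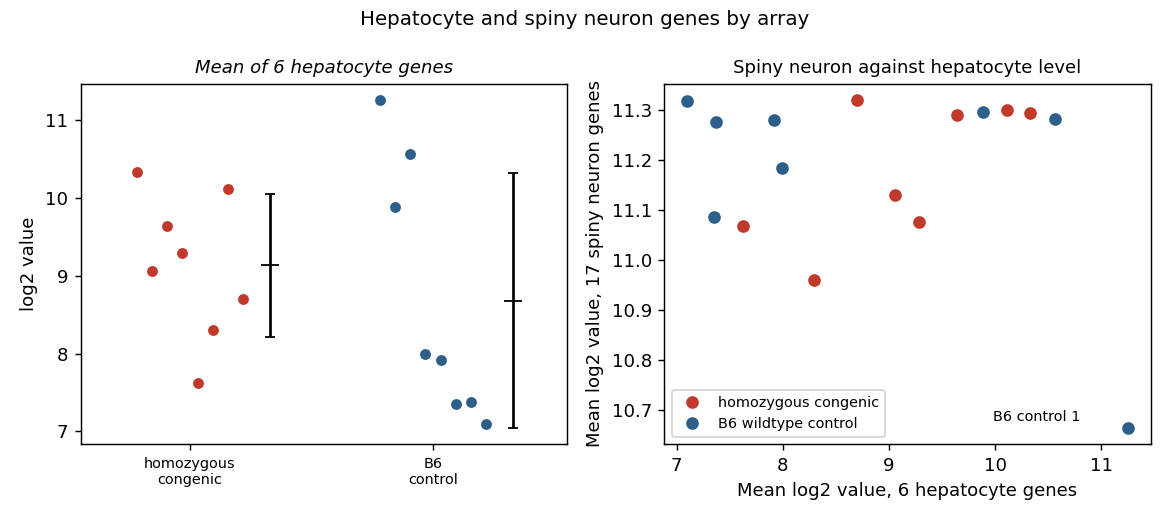
Left, mean log2 value of the 6 hepatocyte genes for each array, with the group mean and SD as a bar; right, mean log2 value of 17 spiny neuron markers against the hepatocyte mean. B6 control 1 has the highest hepatocyte mean, 11.26, and the lowest spiny neuron mean, 10.67.

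The promoters of the 3 segment genes whose values did not overlap between the groups are shown, since these genes carry the main result. They are the B6 reference sequence from RefSeq (GRCm38.p6, plus strand), with 250 bases before the transcription start and 50 after it. Capitals mark matches on either strand to TATAAA, the core of a TATA box, or CCAAT, the core of a CCAAT box, motifs that share no overlapping match here. CACGTG, an E-box, was searched too and has no match in the 3 windows. The A/J alleles of these windows were not used here. The windows are chr11:94211204-94211503 for Tob1, chr11:88098896-88099195 for Cuedc1, the first of its 2 listed starts, and chr11:94653541-94653840 for Mrpl27.
Tob1: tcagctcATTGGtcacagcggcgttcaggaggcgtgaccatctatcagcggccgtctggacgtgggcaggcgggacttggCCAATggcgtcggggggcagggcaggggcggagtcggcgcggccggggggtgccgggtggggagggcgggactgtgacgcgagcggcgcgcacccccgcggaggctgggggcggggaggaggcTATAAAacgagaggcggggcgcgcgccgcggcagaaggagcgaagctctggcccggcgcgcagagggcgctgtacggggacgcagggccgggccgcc
Cuedc1: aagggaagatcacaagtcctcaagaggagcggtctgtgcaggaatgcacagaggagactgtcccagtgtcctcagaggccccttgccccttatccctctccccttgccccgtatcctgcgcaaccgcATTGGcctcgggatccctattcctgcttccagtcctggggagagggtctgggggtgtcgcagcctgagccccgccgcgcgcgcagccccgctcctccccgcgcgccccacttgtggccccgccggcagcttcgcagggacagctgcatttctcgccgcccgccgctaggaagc
Mrpl27: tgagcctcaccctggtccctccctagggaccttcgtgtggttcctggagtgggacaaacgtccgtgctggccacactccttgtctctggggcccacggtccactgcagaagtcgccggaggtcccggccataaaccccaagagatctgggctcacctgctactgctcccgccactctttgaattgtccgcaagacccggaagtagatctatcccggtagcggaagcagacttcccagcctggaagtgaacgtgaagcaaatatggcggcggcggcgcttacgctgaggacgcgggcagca
The Tob1 window holds TATAAA at position -47 and CCAAT at -243 and -170, counted from the start. The Cuedc1 window holds CCAAT at -123, and the Mrpl27 window holds neither motif. Of 32851 promoters of the same length, 13.6% hold TATAAA, 37.4% hold CCAAT and 7.15% hold CACGTG on either strand. The share of G and C is 75.3% for Tob1, 67% for Cuedc1 and 61.3% for Mrpl27, against a median of 52.7% over all promoters. These matches are a description of the letters in the windows.

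Tob1, an antiproliferative protein of the BTG and TOB family that recruits the deadenylase machinery to mRNA, was the leading gene. Its log2 value was 8.95 at the lowest, 9.10 at the median and 9.18 at the highest in homozygous congenic striatum, against 9.34, 9.39 and 9.48 in B6 striatum. Every homozygous congenic mouse lay below every B6 mouse. Tob1 fell by 0.32 on the log2 scale (SE 0.0381), which is 0.8 times the B6 level with a 95% interval of 0.757 to 0.846 (limma, adjusted p = 0.00447, n = 8 and 8). It was 1 of 4 genes called among 19946, or 0.0201%. With the liver covariate the change was -0.33 (adjusted p = 0.00148), and without B6 control 1 it was -0.31 (adjusted p = 0.00699). Females gave -0.36 and males -0.28, a difference of 0.09 that did not pass (limma, unadjusted p = 0.266, adjusted p = 0.769). Tob1 remained called in each of the 16 fits that left out 1 mouse. The call was lost with age in days as a covariate (-0.18, adjusted p = 1), a fit that cannot tell age and genotype apart. It was also lost with the replicate number as a block (adjusted p = 0.104). With the mice nearest in age, 57-day congenic and 61-day B6 (4 a group), Tob1 fell by 0.27 (adjusted p = 0.0375), and with the covariate added the difference of -0.31 did not pass (adjusted p = 0.788). These mice also differ in liver RNA, with a liver mean of 9.06 to 10.33 in the 4 congenic mice and 7.09 to 7.91 in the 4 B6 mice, so that genotype and liver RNA cannot be told apart among them. Judged by the order of platform identifiers, the Tob1 cluster holds a masked probeset. An effect of other A/J variants on its probes was not tested.

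Within the BTG and TOB family the difference was largest for Tob1. Btg2, which is also an immediate early gene, was at 7.77, 7.97 and 8.04 (lowest, median, highest) in homozygous congenic mice and at 7.90, 8.10 and 8.33 in B6 mice. The difference of -0.17 did not pass (limma, adjusted p = 0.55). Tob2 differed by -0.05, Btg1 by 0.01 and Btg4 by 0.04, and none of the 3 passed.

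Of the 132 segment genes, 14 had an unadjusted p under 0.05, 8 higher and 6 lower, which is 10.6%, where 6.1% of all genes tested did (2.8% higher and 3.3% lower). The segment's median difference was 0.01, beside 0.02 over all genes, and 74 of 132 were higher. Groups did not overlap for 3 segment genes, 2.27%, where 20 of 19946 genes, 0.1%, were so separated. The other 17 were 15 olfactory receptor genes, the vomeronasal receptor gene Vmn2r113 and Oga, which encodes the enzyme that removes O-GlcNAc from proteins.

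Cuedc1, a CUE domain protein of a family that binds ubiquitin, was higher in the congenic mice. Its log2 value was 8.14, 8.29 and 8.34 (lowest, median, highest) in homozygous congenic mice, against 7.69, 7.99 and 8.13 in B6 mice, so the groups met but did not overlap. The difference was 0.30 (SE 0.0565), or 1.23-fold with an interval of 1.13 to 1.33, and did not pass without the covariate (limma, adjusted p = 0.102). With the liver covariate Cuedc1 rose by 0.32 (adjusted p = 0.0126). Without B6 control 1, which had the lowest B6 value for Cuedc1 and the most liver RNA, that fit gave 0.28, nearly as large, with an adjusted p of 0.0557. Females gave 0.39 and males 0.21 (limma, unadjusted p = 0.108 for the difference between the sexes). The Cuedc1 cluster, like that of Tob1, holds a masked probeset as judged by identifier order. An effect of other A/J variants on its probes was not tested.

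Mrpl27, a protein of the large subunit of the mitochondrial ribosome, was lower. It was at 9.20, 9.30 and 9.38 (lowest, median, highest) in homozygous congenic mice and at 9.41, 9.48 and 9.56 in B6 mice. The difference of -0.19 (SE 0.034) was outside the threshold without the covariate (limma, adjusted p = 0.0851) and just inside it with the covariate (adjusted p = 0.0492), a call kept in 3 of 16 fits that left out 1 mouse. A second cluster for Mrpl27, much dimmer and holding a masked probeset as judged by identifier order, differed by -0.18. Genes were placed by their annotation and not by where the probes of a cluster lie. The platform identifier of the dimmer cluster lies near those of Cuedc1, Mrps23 and Mmd in the segment. That of the brighter cluster, used here and without a masked probeset by the same rule, lies far from them. Whether its probes target the segment was not tested. Mrps23, of the small subunit, differed by -0.10 and did not pass (adjusted p = 0.787).

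Rsad1, a radical SAM domain protein, was at 8.27, 8.34 and 8.61 (lowest, median, highest) in homozygous congenic mice and at 8.02, 8.18 and 8.32 in B6 mice, with slight overlap. Its difference was 0.20 (limma, adjusted p = 0.23), and with the liver covariate Rsad1 rose by 0.23 (adjusted p = 0.0247). Without B6 control 1 the covariate fit gave 0.22 (adjusted p = 0.064). Tob1, Cuedc1, Rsad1 and Mrpl27 were the 4 segment genes among 21 called with the covariate, 0.105% of 19940, and of the 4 Tob1 alone stayed called in that fit once B6 control 1 was left out. With the covariate 29 segment genes had an unadjusted p under 0.05, 22 higher and 7 lower, or 22%, where 16.3% of all genes did (9.51% higher and 6.74% lower).

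Further segment genes with an unadjusted p under 0.05 did not pass the adjusted threshold in either fit. Brip1os, named as a transcript opposite to the DNA repair helicase gene Brip1, was at 6.88, 6.99 and 7.10 in homozygous congenic mice and at 7.08, 7.18 and 7.41 in B6 mice, a difference of -0.20. Only the top of the first group and the bottom of the second crossed. Nme2, a nucleoside diphosphate kinase, was at 8.72, 8.85 and 9.03 against 8.90, 9.05 and 9.30 in B6 mice, a difference of -0.21. Tubd1, the delta tubulin of centrioles, was at 7.40, 7.46 and 7.54 in homozygous congenic mice and at 7.26, 7.32 and 7.44 in B6 mice, a difference of 0.13. Here B6 control 2 alone reached into the congenic range. The clathrin heavy chain gene Cltc differed by 0.09, the ATP synthase subunit c gene Atp5g1 by 0.12, Ggnbp2os by 0.13, the helicase gene Dhx40 by 0.09, Mmd by 0.09 and the ciliary gene Mks1 by -0.07. Their adjusted p-values lay between 0.455 for Ggnbp2os and 0.792 for Mks1 (limma). A second cluster for Atp5g1, with a mean of 11.61 beside 11.77 for the first, differed by 0.07 (limma, unadjusted p = 0.137).

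**Figure D2:**
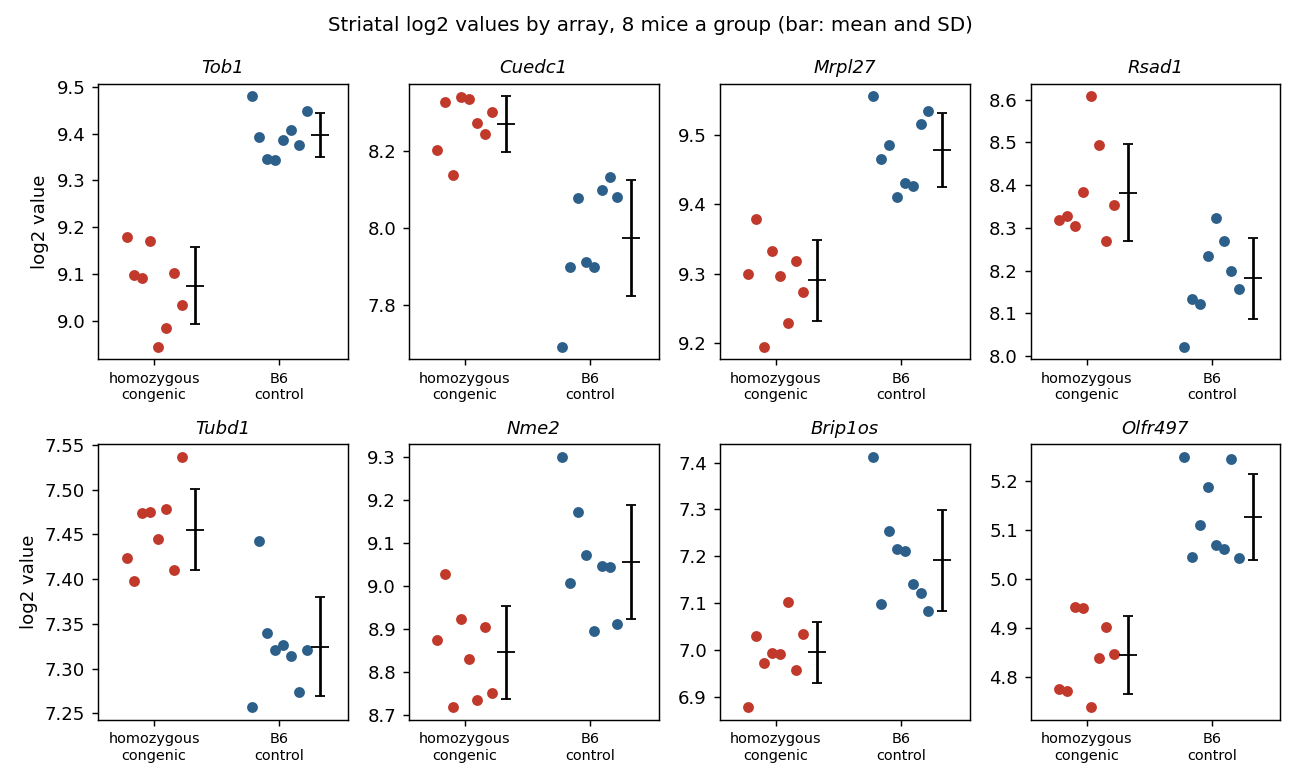
Log2 value in each mouse for 7 segment genes and the olfactory receptor gene Olfr497, homozygous congenic mice left of B6 controls, with the group mean and SD as a bar. For Tob1 and Mrpl27 every congenic value lies below every B6 value, and for Cuedc1 every congenic value lies above.

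Masked probesets were unevenly placed. The authors had removed probes over known coding differences between B6 and A/J. Each masked probeset was given to the cluster with the nearest platform identifier at or below its own, without a map of probesets to clusters. By this rule 71 tested genes hold at least 1 such probeset, 30 of them among the 132 segment genes. Some thus lie outside the stretch for which masking was described, and the rule was not tested. Of these 30, 3 were higher and 3 lower at an unadjusted p under 0.05, and of the other 102, 5 were higher and 3 lower. Under this rule 23 of 47 plus-strand genes hold a masked probeset, against 1 of 57 minus-strand genes. Strand is that of the RefSeq promoter table, which gave none for 28. At an unadjusted p under 0.05, 4 plus-strand genes were higher and 4 lower, and 4 minus-strand genes were higher and 1 lower. The part of unmasked variants in these differences was not tested.

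The heterozygous mice gave the same measure with 1 copy, in mice and arrays not used above. No gene was called there (limma, 0 of 19946 at adjusted p under 0.05, 876 or 4.39% at an unadjusted p under 0.05). In the segment 19 genes had an unadjusted p under 0.05, 10 higher and 9 lower. The sign agreed between 2 copies and 1 copy for 78 of 132 segment genes, 59.1%, beside 49.9% of all genes. Of the 14 segment genes at an unadjusted p under 0.05 with 2 copies, 12 had the same sign with 1 copy, 85.7%, where 48% of all such genes did. The 2 exceptions were Dhx40 and Ggnbp2os. Tob1, Cuedc1, Mrpl27, Brip1os, Nme2, Tubd1 and Mrps23 were under 0.05 unadjusted in both sets, all 7 with the same sign. The diacylglycerol kinase gene Dgke differed by -0.24 with 1 copy (limma, unadjusted p = 0.000575) and by -0.18 with 2 copies (limma, unadjusted p = 0.0652).

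For Tob1 the difference with 1 copy was -0.13, with 9.17 ± 0.10 (SD, n = 6) in heterozygous mice and 9.30 ± 0.09 (n = 6) in littermates. The effect of 2 copies minus that of 1 copy was -0.19 (95% interval -0.32 to -0.06, limma, unadjusted p = 0.00656, adjusted p = 0.773). For Cuedc1 the difference was 0.28 with 1 copy, against 0.30 with 2, and 2 minus 1 was 0.02 (-0.15 to 0.19). Heterozygous mice had Cuedc1 at 8.27 ± 0.06 (SD, n = 6) and littermates at 7.99 ± 0.12 (n = 6). Brip1os differed by -0.25 with 1 copy and by -0.20 with 2, so 2 minus 1 was 0.05 (-0.10 to 0.19). Tubd1 differed by 0.12 with 1 copy and 0.13 with 2, and 2 minus 1 was 0.01 (-0.10 to 0.12). These intervals are wide enough to hold differences as large as 0.1 on the log2 scale. No gene of the array passed for a difference between 2 copies and 1 (limma, 0 of 19946, 1011 or 5.07% at an unadjusted p under 0.05). Since the sets differ also in batch, age and litter, dosage cannot be told apart from these.

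**Figure D3:**
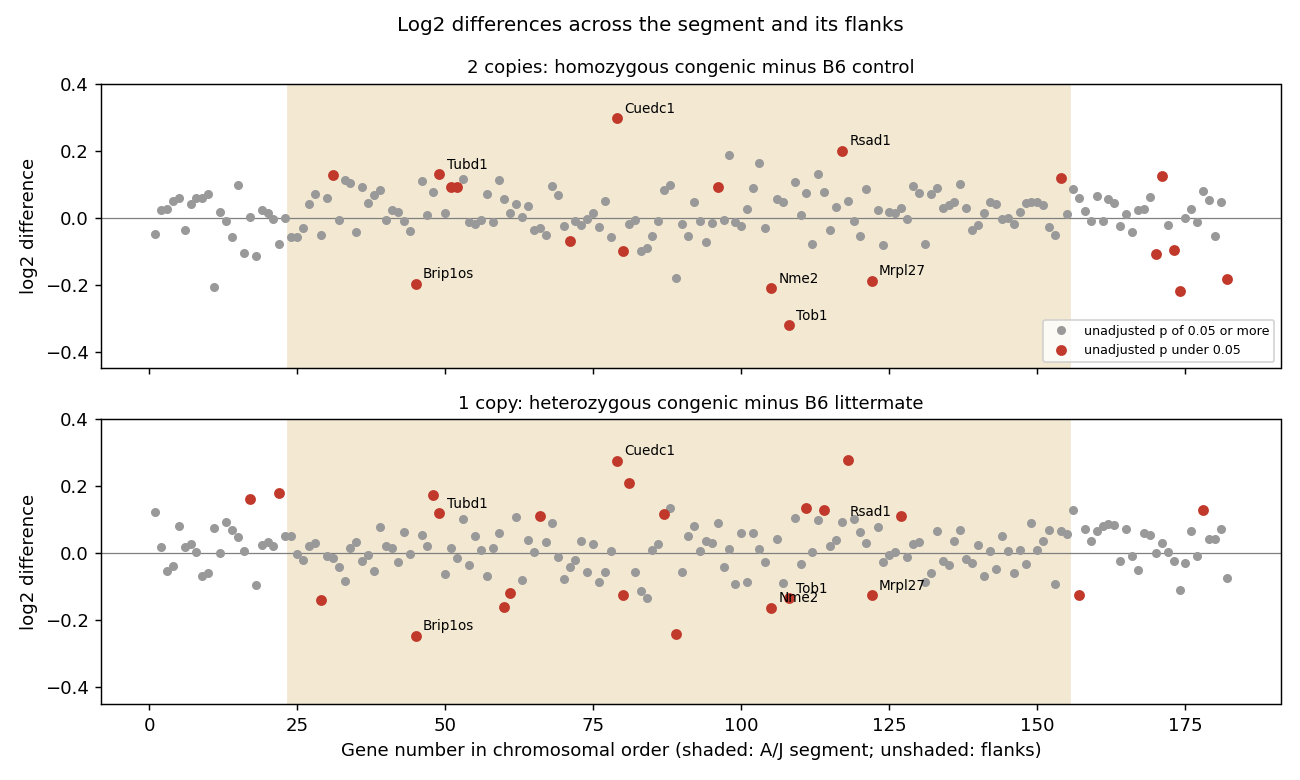
Log2 difference of each gene tested in the segment (shaded) and in flanks of 50 reference genes on each side, in chromosomal order, for 2 copies above and 1 copy below; red points have an unadjusted p under 0.05. Tob1 and Cuedc1 mark the extremes with 2 copies, -0.32 and 0.30.

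In the flanks, 0 of 23 proximal genes and 5 of 27 distal genes had an unadjusted p under 0.05 with 2 copies, beside 6.1% of all genes, and 0 passed the adjusted threshold. Osbpl7, an oxysterol-binding protein of the distal flank, was at 8.58, 8.68 and 8.73 (lowest, median, highest) in homozygous congenic mice and at 8.59, 8.88 and 8.95 in B6 mice. The overlap came from B6 control 1, the lowest B6 value, at 8.59. The difference was -0.18 (limma, adjusted p = 0.22), and without B6 control 1 Osbpl7 fell by 0.22 (adjusted p = 0.0442), as 1 of 3 genes called, 0.015%, beside Tob1 and Olfr497. Copz2, a coatomer subunit, differed by -0.22 (adjusted p = 0.308), and Cbx1, a heterochromatin protein, by 0.12 (adjusted p = 0.342). How far A/J sequence extends past the stated border was not tested. Further along chromosome 11, Pcgf2, a Polycomb group protein, differed by 0.19 and rose by 0.23 with the liver covariate (adjusted p = 0.0267), and without B6 control 1 that fit gave 0.20 (adjusted p = 0.0809). The remaining genes called with the covariate, apart from receptor genes, were 1700071K01Rik on chromosome 11, which rose by 0.21, Rpgrip1l on chromosome 8, a gene of the ciliary transition zone, which rose by 0.26, and Gm21286 on chromosome 4, which fell by 1.02. Rpgrip1l was at 7.84, 8.04 and 8.11 (lowest, median, highest) in homozygous congenic mice and at 7.53, 7.81 and 7.91 in B6 mice, with some overlap. Gm21286 reached 10.03 in 1 B6 mouse, where the homozygous congenic mice ended at 7.33. Left without B6 control 1, that fit gave 0.20 for 1700071K01Rik (adjusted p = 0.108), 0.24 for Rpgrip1l (adjusted p = 0.0870) and -0.76 for Gm21286 (adjusted p = 0.0870), so that no call on the 3 was kept.

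The other 3 genes called without the covariate were olfactory receptor genes on other chromosomes, all lower. Olfactory receptors are odorant-binding G protein-coupled receptors of the nasal epithelium, and 818 of the 1027 measured here lay in the dimmest of 5 equal groups of genes by mean level. Olfr497 on chromosome 7 was at 4.74, 4.84 and 4.94 (lowest, median, highest) in homozygous congenic mice and at 5.04, 5.09 and 5.25 in B6 mice, with no overlap. It fell by 0.28 (limma, adjusted p = 0.0195), and over the fits that left out 1 mouse the adjusted p reached 0.0754. Olfr495, also on chromosome 7, fell by 0.34 (adjusted p = 0.0319), and Olfr168 on chromosome 16 fell by 0.30 (adjusted p = 0.0319). Without B6 control 1 the differences were close in size, -0.32 for Olfr495 and -0.29 for Olfr168, and the adjusted p of 0.0517 for each was just outside the threshold. Each call was kept in 3 of 16 fits that left out 1 mouse. Olfr497 was kept in 9 of 16, and with the covariate in 16 of 16.

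As a family the olfactory receptor genes were lower in the congenic mice. Of 1027, 869 or 84.6% were lower, where 38.5% of all genes were, and 349 were lower at an unadjusted p under 0.05, or 34%, where 3.3% of all genes were. The family's median difference was -0.07. The mean over the family was 5.39, 5.47 and 5.54 (lowest, median, highest) in homozygous congenic arrays and 5.50, 5.55 and 5.62 in B6 arrays, so that the groups overlapped at their edge. In the dimmest group, 715 of 818 olfactory receptor genes were lower, against 1593 of 3171 other genes, whose median difference was 0. Of these other dim genes 146 were lower and 74 higher at an unadjusted p under 0.05, beside 3.3% and 2.8% of all genes. With the liver covariate 266 were lower and 89 higher, beside 6.74% and 9.51% of all genes. With all arrays they too thus leaned lower than genes as a whole. Without B6 control 1, 43.3% of them were lower beside 42.5% of all genes, with 132 lower and 120 higher at that level. With the covariate and without that array, 47.1% were lower beside 41.7% of all genes. The vomeronasal receptor genes, which encode pheromone receptors and are also dim here, were lower in 136 of 167 cases, with a median of -0.05. On chromosome 2, 257 of 277 olfactory receptor genes were lower (median -0.12), on chromosome 9, 116 of 128, and on chromosome 7, 185 of 220. Only 3 olfactory receptor genes lie in the segment. Many receptor genes are near copies of each other, so that their probes can share targets and the genes are not independent.

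The pattern was close with the liver covariate, where 881 of 1027 were lower (median -0.08) and 12 were called, all lower. Beside Olfr497, Olfr495 and Olfr168 these were Olfr1205, Olfr1273-ps, Olfr1143, Olfr488, Olfr1184, Olfr1181, Olfr672, Olfr1009 and Olfr620, with changes between -0.41 for Olfr1184 and -0.24 for Olfr1273-ps and adjusted p-values of at most 0.0492. Olfr1184 was at 6.19, 6.32 and 6.50 (lowest, median, highest) in homozygous congenic mice and at 6.55, 6.74 and 7.14 in B6 mice. When B6 control 1 was left out, 820 of 1027 were lower (median -0.06). With the covariate and without that array, Olfr497 was the 1 receptor gene called, and together with Tob1 it made up the 2 genes called in that fit, 0.01%. With 1 copy the family leaned the other way, with 713 of 1027 higher and a median of 0.03, though other dim genes did so too (1957 of 3171 higher, median 0.02), and of the 349 genes lower at an unadjusted p under 0.05 with 2 copies, 234 were higher with 1 copy. The genes of smallest p for 2 copies minus 1 copy were Olfr146, Olfr689, Olfr495, Olfr619 and the trypsin gene Try10, of which the smallest adjusted p was 0.51 (limma). With age in days as a covariate the family's median with 2 copies was -0.11, and with the mice nearest in age it was -0.08. The part of array order, which would go with genotype if it followed the sample numbers, was not tested.

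**Figure D4:**
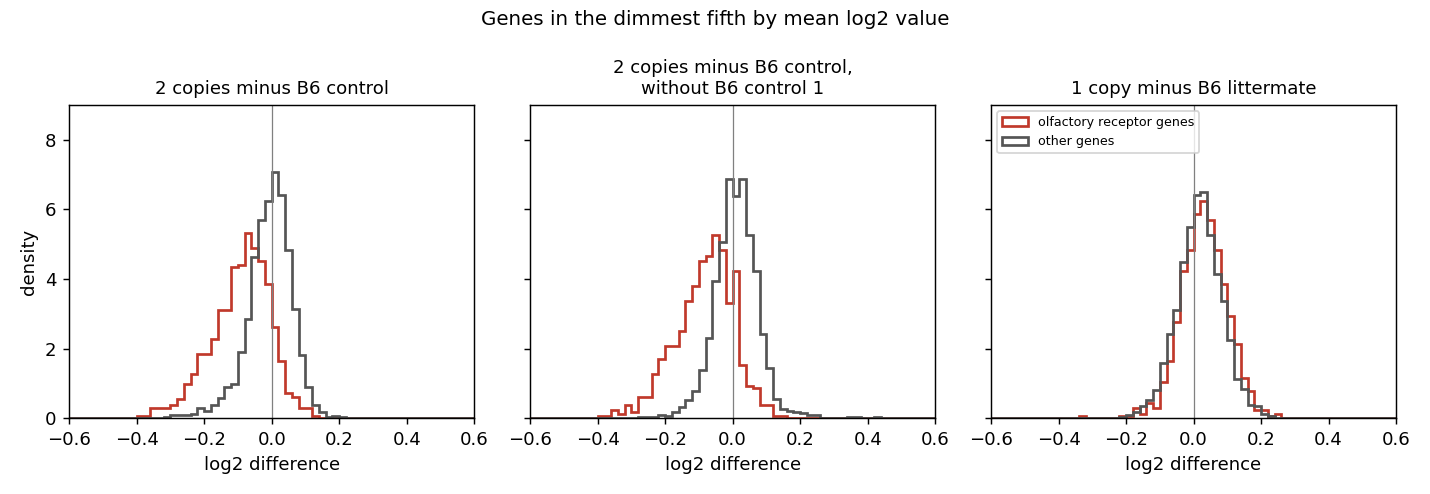
Distribution of log2 differences for the dimmest of 5 equal groups of genes, 818 olfactory receptor genes in red and other genes in grey, with 2 copies, with 2 copies and B6 control 1 left out, and with 1 copy. The receptor genes sit to the left of the other genes with 2 copies, median -0.08 beside 0, and nearly cover them with 1 copy, median 0.03 beside 0.02.

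Immediate early genes, which neurons induce within minutes of firing, were mostly lower in the congenic mice, though none passed the adjusted threshold. Of 19, 18 were lower, where 38.5% of all genes were, and 6 of them had an unadjusted p under 0.05, where 3.3% of all genes were lower at that level. The median difference was -0.13. Npas4, an activity-dependent transcription factor, was at 7.57, 8.31 and 8.66 (lowest, median, highest) in homozygous congenic mice and at 8.48, 8.93 and 9.33 in B6 mice. The groups overlapped, and the difference of -0.73 (SE 0.174) was 0.601 times the B6 level with an interval of 0.466 to 0.776 (limma, adjusted p = 0.185). Fos, a subunit of the AP-1 factor, was at 6.88, 7.20 and 7.34 in homozygous congenic mice and at 7.24, 7.45 and 7.58 in B6 mice, a difference of -0.27 (adjusted p = 0.137). Arc, which acts at synapses, differed by -0.32, the nuclear receptor gene Nr4a1 by -0.39 and the phosphatase gene Dusp1 by -0.26, while Egr3 differed by -0.01 and Ier2 by 0.01.

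With the liver covariate 17 of 19 immediate early genes were lower (median -0.16), and without B6 control 1, 17 of 19 were lower with 8 at an unadjusted p under 0.05, beside 42.5% of all genes lower and 4.31% lower at that level. With 1 copy 10 of 19 were lower (median -0.01). The direction turned in the fits that used age. With age in days as a covariate the median was 0.18, and with the 4 congenic and 4 B6 mice nearest in age, which also differ in liver RNA without overlap, it was 0.04. Since the ages of the groups do not overlap, age and genotype cannot be told apart in either fit. In the subset liver RNA cannot be told apart from them either.

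**Figure D5:**
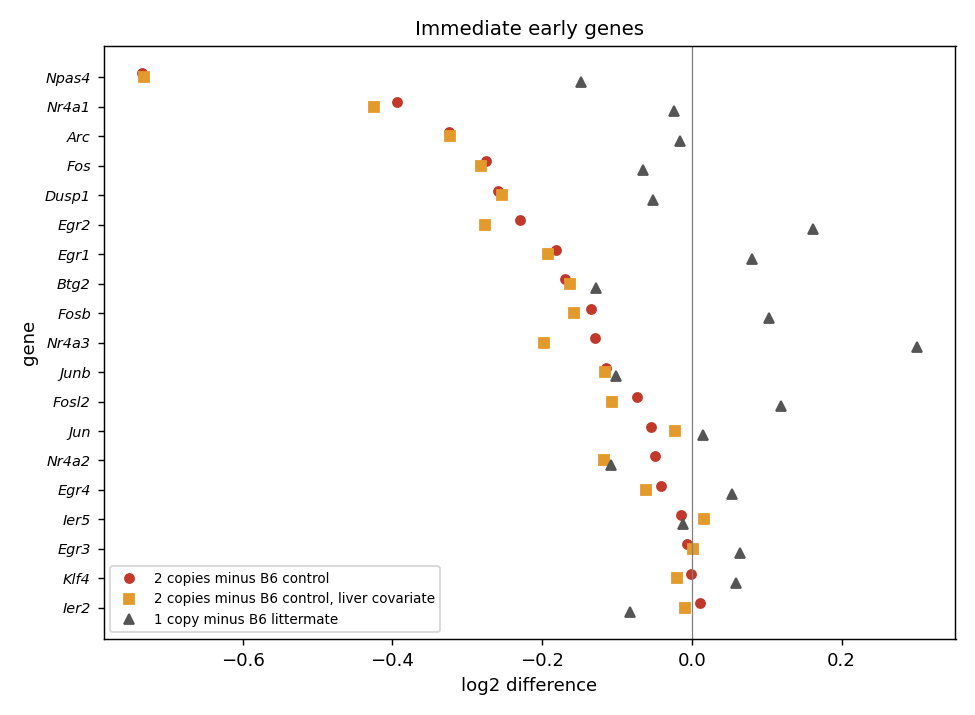
Log2 difference of 19 immediate early genes with 2 copies, with 2 copies and the liver covariate, and with 1 copy, in order of the first. Npas4 has the largest difference with 2 copies, -0.73, and -0.15 with 1 copy.

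Of the 15 glucocorticoid-responsive genes, 13 were lower with a median of -0.05, and Mt2, a metallothionein, had an unadjusted p under 0.05 at -0.13. The 11 genes of endothelium and pericytes were all lower, median -0.05, with the angiopoietin receptor gene Tek at -0.12. Without B6 control 1, the array highest in the mean of both lists, the counts were 11 of 15 and 9 of 11. In that fit 4 glucocorticoid-responsive genes and 3 of endothelium and pericytes were lower at an unadjusted p under 0.05, where 4.31% of all genes were. With all arrays it was 1 gene in each list, where 3.3% of all genes were. None of these genes passed the adjusted threshold.

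The leading genes of the spiny neurons overlapped between the groups, and none passed. The dopamine receptor gene Drd1 was at 10.43, 10.76 and 10.87 (lowest, median, highest) in homozygous congenic mice and at 10.24, 10.76 and 10.86 in B6 mice. Drd2 was at 11.30, 11.62 and 11.78 in homozygous congenic mice and at 11.13, 11.72 and 11.77 in B6 mice. The difference was 0.01 for Drd1 (95% interval -0.15 to 0.18) and -0.03 for Drd2 (-0.20 to 0.15). The dopamine-regulated phosphatase inhibitor gene Ppp1r1b differed by -0.03 (-0.22 to 0.15), the enkephalin gene Penk by -0.04 (-0.16 to 0.09) and the substance P gene Tac1 by -0.07 (-0.27 to 0.14). B6 control 1 had the lowest B6 value for Drd1, Drd2, Ppp1r1b, Penk and Tac1. With it, 10 of 17 shared spiny neuron markers were higher, and without it 16 of 17 were lower (median -0.05), 1 of them at an unadjusted p under 0.05, where 4.31% of all genes were lower and 7.35% in all passed that level. With the covariate and without that array, 16 of 17 shared markers were lower, 5 of them at an unadjusted p under 0.05 (median -0.08), as were 9 of 9 markers of the direct pathway, 3 at that level (median -0.10), and 6 of 8 of the indirect pathway, 4 at that level (median -0.08). In that fit 5.06% of all genes were lower at that level and 10.8% in all passed it. Of 18 dopamine signalling genes, 10 were higher with all arrays, 7 without B6 control 1, and 4 without it and with the covariate, where 4 of the 14 lower ones had an unadjusted p under 0.05 (median -0.09).

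The subunit genes of AMPA, NMDA and kainate receptors, the ion channels of fast glutamate signalling, were higher in 14 of 15 cases (median 0.08). Grin3a, an NMDA receptor subunit, had an unadjusted p under 0.05 at 0.15 (adjusted p = 0.714). The mean over these genes was lowest in B6 control 1, at 9.38, and without that array 11 of 15 were higher with a median of 0.03. With the covariate all 15 were higher, 6 of them at an unadjusted p under 0.05, where 9.51% of all genes were higher at that level. Slopes on the liver mean were below 0 for 15 of 15 of these genes, where 57.9% of all genes had such slopes. With 1 copy 10 of 15 were lower (median -0.02), beside 48.4% of all genes. Grin3a differed by -0.15 with 1 copy (limma, unadjusted p = 0.0531), so its sign was not shared.

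Markers of other cells and tissues were tested as well, and none passed the adjusted threshold. Over all genes 12266 of 19946 were higher (median 0.02), and 11463 without B6 control 1 (median 0.01), so that counts near these shares match the array as a whole. Of 12 choroid plexus and ependyma genes 11 were higher (median 0.07), of 10 cortical excitatory genes 9 (median 0.06), of 9 thalamic and subcortical excitatory genes 5 (median 0.03), of 11 oligodendrocyte genes 8 (median 0.05), of 12 astrocyte genes 9 (median 0.03) and of 11 microglia genes 7 (median 0.02). Of 13 interneuron genes 7 were higher and of 15 circadian clock genes 10, with medians of 0 and 0.01. Of 7 kidney genes 5 were higher and of 8 skeletal muscle genes 5, and both measured blood genes were lower. The water channel gene Aqp4 at 0.12 and the kidney phosphate transporter gene Slc34a1 at 0.11 were the only members of these lists at an unadjusted p under 0.05, and neither passed the adjusted one. Without B6 control 1, 4 of 11 oligodendrocyte, 5 of 12 astrocyte and 3 of 15 clock genes were higher, as were both blood genes. Of 27 further hepatocyte genes 19 were higher with all arrays (median 0.14), and 27 without B6 control 1 (median 0.59), none at an unadjusted p under 0.05. Their mean was 7.24, 8.31 and 9.59 (lowest, median, highest) in homozygous congenic mice and 6.91, 7.37 and 11.04 in B6 mice. With the liver covariate the direction turned, and 24 of these 27 genes were lower (median -0.22). In that fit 15 were lower and 1 higher at an unadjusted p under 0.05, where 6.74% of all genes were lower and 9.51% higher. With the covariate and without B6 control 1, 18 of 27 were lower, 5 of them at that level, where 5.06% of all genes were. The covariate thus did not bring these genes to 1 level in both groups.

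No gene differed between the sexes in its genotype difference (limma, 0 of 19946 at adjusted p under 0.05, 846 or 4.24% at an unadjusted p under 0.05). The genes of smallest p were the microRNA genes Mir382 and Mir543, neighbours in an imprinted cluster, 1700021F07Rik, the defensin gene Defb6 and Mir208a, each with an adjusted p of 0.769. Mir382 gave 0.36 in females and -0.14 in males, and Mir543 gave 0.35 and -0.09.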

How the data were processed

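The members and gene lists were chosen with earlier results of these data known. RNA from striatal punches was hybridised to Mouse Gene 1.0 ST arrays, per the labels. The authors deposited log2 values, RMA summaries per transcript cluster and the submitters' processing notes name Affymetrix Expression Console for them. Probes over SNPs from 84 to 96 Mb were masked and the 2 batches joined with ComBat, per the deposited notes, which say that non-coding SNPs were not searched. Shrinkage between batches can change levels, so groups were compared within batch 2. The array column headers named 28 of 28 samples.

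Of 35556 clusters, 21797 have 1 symbol in the platform annotation, 1613 several and 12146 none. The cluster with the highest mean stood for each gene. The segment is the gene order from Acaca to Calcoco2 in GRCm38.p6, 264 reference genes. Differences were tested with limma 3.58.1 in R 4.3.3, 2-sided, with sex as a term and Benjamini-Hochberg adjustment over all genes at a threshold of 0.05. The covariate is the per-array mean of 6 hepatocyte genes, which were then left out. The number of arrays limits the precision. Fits were tested on simulated data.

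The naming rule took called genes, at most 15 a fit. In each fit it took the 12 segment genes, 4 genes of each flank and 8 other genes of smallest p. It also took up to 3 members of each of 22 lists with an unadjusted p under 0.05. The 5 of smallest p for the other contrasts and a fixed set of striatal and segment genes were added. Of these, Ccl4, Ccl5, Gas2l2 and Snx11 of the flanks are not described. Ints2, Trim37, Usp32, Taf15, Ccl9, Wfdc17 and Wfdc21 are given only where signs turned. Further members named for contrast were chosen after their values were seen. The alternatives were other covariates, ages, arrays, normalizations, filters and variance models, and leaving out B6 control 1 with the liver covariate or in list counts was chosen after seeing the data. The replicate numbers were not taken to pair the mice. Correlations of deviations between equally numbered homozygous and B6 mice ran from -0.52 to 0.69, with 6 of 8 over 0.1. In 1 of 8 pairs the mouse of equal number gave the highest correlation.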

Additional observations from a re-analysis of the deposited data

Results flagged for a closer look

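Of 88 groups checked for a sample far from the others, 8 held one, where chance gives about 1 in 20. The groups share the same arrays and are not independent, so these rates cannot be compared directly. B6 control 1 was far below the other B6 controls for Drd2 (11.13, the next value being 11.50), Penk (13.20, next 13.43), Ppp1r1b (11.51, next 11.98) and Tac1 (10.88, next 11.48). It was also lowest for Ggnbp2os (7.40, next 7.63) and for the mean of the shared spiny neuron markers (10.67, next 11.09). It was highest for the receptor pseudogene Olfr1273-ps (4.80, next 4.51). Its liver mean, 11.26, was the highest of the batch, and the part of liver RNA in these values was not tested. B6 control 2 was highest for Tubd1 (7.44, next 7.34).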

How the results depend on the processing

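Without the covariate 4 genes were called. No gene was called with the replicate block or with age as a covariate, 189 with nearest ages only (158 higher, 31 lower, in mice whose liver means do not overlap between the groups), 1 with all 28 arrays, 1 among genes brighter than the median, 11 with array weights and 10 with trend and robust eBayes. The methods' t-test called 5 (1305 unadjusted). Segment genes called, 1 in the reported fit, were 0 with the replicate block, with age or without masked clusters (Tob1 and Cuedc1 are then not tested), 2 with nearest ages or the methods' t-test and 3 with array weights. Segment genes at an unadjusted p under 0.05, 14 as reported, were 5 with age, 8 without masked clusters and 24 with array weights. With the liver covariate 21 were called, against 0 with the replicate block, age or nearest ages, 12 after another quantile normalization, 7 among the brighter genes, 7 without masked clusters, 82 with array weights, 53 with the covariate on the linear scale and 55 with other hepatocyte genes. Of these, segment genes were 0 with block, age or nearest ages and 1 without masked clusters, and 29 at an unadjusted p under 0.05 became 15 with age and 7 with nearest ages. For 2 copies minus 1 the replicate block called 1, and the liver covariate gave 13 segment genes at an unadjusted p under 0.05. With 1 copy the brighter genes gave 11 such genes. Leaving out 1 mouse gave 1 to 38 calls (38 without B6 control 4), with 1 to 2 in the segment and 11 to 21 segment genes at an unadjusted p under 0.05. With the covariate it gave 2 (without B6 control 1) to 579 (without B6 control 2), with 1 to 10 and 24 to 33. For 1 copy the ranges were 0 to 1 and 13 to 20, for 2 copies minus 1 they were 0 and 4 to 6, and for the effect by sex 0. The causes were not tested.

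Signs turned for the following genes. With age, Ccl9 was 0.332, Wfdc17 0.779, Wfdc21 0.509, Ints2 -0.00745, Pcgf2 -0.0466, Trim37 -0.0278 and Usp32 -0.0524, and with age and the covariate Dgke was 0.0335 and Drd2 0.0148. With nearest ages Ccl9 was 0.227, Wfdc17 0.593, Wfdc21 0.362 and Usp32 -0.00627, and with the covariate too Atp5g1 was -0.0519, Drd1 -0.221, Mrpl27 0.00585, Mrps23 0.0138, Nme2 0.247 and Taf15 -0.0168. With array weights Ccl9 was 0.0113, Wfdc17 0.167, Wfdc21 0.0808 and Drd1 -0.0441, and with weights and the covariate Drd1 was -0.0595. Over fits that left out 1 mouse Ccl9 ran between -0.278 and 0.0170, Wfdc17 between -0.239 and 0.201 and Wfdc21 between -0.185 and 0.104, each above 0 only without B6 control 1. Drd1 ran between -0.0424 and 0.0532, Drd2 between -0.0858 and 0.0108 and Ppp1r1b between -0.0990 and 0.00139. With the covariate Drd1 ran between -0.0984 and 0.0635, Drd2 between -0.144 and 0.0215, Ppp1r1b between -0.144 and 0.0154, Penk between -0.105 and 0.00194 and Tac1 between -0.172 and 0.00846.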

Other observations

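Xist, the RNA that coats the inactive X chromosome of females, was not at 1 level in the males of batch 2. In order of rising liver mean, the 8 males had Xist at 6.86, 7.25, 7.18, 7.69, 8.11, 8.20, 9.11 and 9.43 on the log2 scale, at liver means of 7.09, 7.37, 8.00, 8.70, 9.29, 9.64, 10.12 and 10.57. The first 3 and the last were B6 controls and the others homozygous congenic mice. The 8 females lay between 11.58 and 11.86. Across the males Xist and the liver mean had a Pearson r of 0.962 (exact permutation p = 0.000149, adjusted p = 0.000446 over 3 relations) and a Spearman rho of 0.976 (exact permutation p = 0.000397). Without the 2 males farthest from the median liver mean r was 0.977 (exact permutation p = 0.00278, n = 6). Across the 8 females the liver mean had an r of 0.409 with Xist (exact permutation p = 0.306) and of -0.337 with Eif2s3y, a Y-linked gene (exact permutation p = 0.41), whose level in females stayed between 4.68 and 5.09.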
